A study of Mus musculus with 675 samples.

Results

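The data describe 10 genes for calcium entry and calcium stores, chosen by name from the 46517 gene identifiers of the count table. Cacna1c, Cacna1g and Cacna1h encode pore subunits of voltage-gated calcium channels and Cacnb2 an accessory subunit. Atp2a2 encodes the pump SERCA2 of the sarcoplasmic reticulum and Atp2b4 the plasma membrane pump PMCA4. Itpr1 and Ryr2 encode the release channels of the store, Stim1 the calcium sensor of the store, and Orai1 the channel that Stim1 opens. All 10 were found by their Ensembl identifiers and all 10 are protein coding, and 75 further calcium-handling genes of a fixed list were read beside them.

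The cells came from an inventory of mouse smooth muscle cells in which 675 single cells with the tissue label aorta were sequenced by Smart-seq2, a plate method that amplifies full-length cDNA and adds no molecular identifiers. All mice were male C57BL/6 animals aged 10 weeks, with no genetic change or treatment given in the labels. Pool A held 54.4% of the cells, from 2 mice on one plate, and pool B 45.6%, from another 2 mice on another plate, so that mice and plate cannot be told apart and each comparison had n = 2 pools. The protocol names heart as the dissociated organ, against the tissue label, and no sort gate is named in the labels.

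In a smooth muscle cell, depolarisation opens L-type channels, and calcium that enters or leaves the store binds calmodulin, which activates myosin light chain kinase and contraction. Receptors for vasoconstrictors act through inositol trisphosphate, which opens the channels encoded by Itpr1 and its relatives. SERCA refills the store, plasma membrane pumps and exchangers expel calcium, and an emptied store is sensed by STIM1, which opens ORAI channels. The T-type channels encoded by Cacna1g and Cacna1h open at more negative potentials than the L-type channel.

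Cells were clustered on genes that excluded all 10 genes and the list, and were named from markers. Smooth muscle-like cells numbered 565 (81.7% of pool A and 86.04% of pool B), fibroblast-like cells 61 (38 in pool A and 23 in pool B) and endothelial-like cells 21 (14 and 7), while 28 cells fell in no class. A cell held 52000 to 608582 counts in pool A and 51886 to 713700 in pool B. The 7 smooth muscle markers, among them Myh11 and Acta2, summed to 23219 and 20604 CPM (counts per 1000000 counts of the class sum) in the smooth muscle-like class, pool A given first throughout, to 2461 and 4227 CPM among fibroblast-like cells and to 2532 and 4219 CPM among endothelial-like cells. The 8 fibroblast markers summed to 20652 and 20347 CPM among fibroblast-like cells and to 1104 and 1145 CPM among smooth muscle-like cells, and the 8 endothelial markers to 10221 and 7398 CPM among endothelial-like cells, where Vwf was at 0 in pool B. Pericyte markers, 7 genes that include Rgs5, summed to 707 and 2794 CPM among endothelial-like cells. They summed to 1403 and 1057 CPM among smooth muscle-like cells and to 585 and 1164 CPM among fibroblast-like cells. Markers of another class were thus included in the class sums below, and their part in the results was not tested. The 10 cardiac muscle markers summed to 38.3 and 250 CPM among smooth muscle-like cells, with Myl2 and Nppa at 0 in both pools, and without the 2 cells that held at least 100 CPM of 3 or more of them the same 4 of the 10 genes described here were called when smooth muscle-like cells were set against fibroblast-like cells.

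Promoter windows of 300 bases, from 250 before to 50 after an annotated start, were found in RefSeq (GRCm38.p6) for 6 of the 10 genes: Cacna1c (3 starts), Cacnb2 (2), Atp2b4, Ryr2, Stim1 and Orai1. The 2 windows printed here belong to Ryr2, whose transcripts separated smooth muscle-like from fibroblast-like cells, and to Stim1, whose transcripts did not pass the test between them. Capitals mark E boxes (CANNTG) and GC boxes (GGGCGG, or CCGCCC on the other strand).
Ryr2, chr13:12106896-12107195, minus strand: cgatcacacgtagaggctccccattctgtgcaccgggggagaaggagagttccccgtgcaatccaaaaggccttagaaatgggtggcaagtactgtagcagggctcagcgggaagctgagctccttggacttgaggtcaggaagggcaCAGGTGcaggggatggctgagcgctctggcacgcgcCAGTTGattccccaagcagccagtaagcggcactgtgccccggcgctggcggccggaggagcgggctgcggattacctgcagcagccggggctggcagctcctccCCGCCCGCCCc
Stim1, chr7:102267569-102267868, plus strand: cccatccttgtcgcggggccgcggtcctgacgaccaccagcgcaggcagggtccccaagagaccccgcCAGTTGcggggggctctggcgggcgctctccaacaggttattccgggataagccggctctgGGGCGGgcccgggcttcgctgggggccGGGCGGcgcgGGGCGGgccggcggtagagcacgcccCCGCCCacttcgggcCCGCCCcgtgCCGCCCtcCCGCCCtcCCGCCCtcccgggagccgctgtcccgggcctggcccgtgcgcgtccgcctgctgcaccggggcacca
The Ryr2 window held 2 E boxes and 2 GC boxes with 65.3% GC, and the Stim1 window 1 E box and 8 GC boxes with 78.7% GC, against a median of 52.7% GC over 32851 promoter windows. An E box was present in 72.3% of all windows and a GC box in 35.7%. The TATA letters TATAAA (13.6% of all windows) and the CArG box, the site of serum response factor (1.63% of all windows), were absent from every window of the 6 genes on both strands. The Cacna1c windows differed among themselves, with 51.3% GC at the first start and at the third, and 81.3% with 6 GC boxes at the second. Gene-level counts do not separate these starts. A match of letters is a description and not a bound site.

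Smooth muscle-like against fibroblast-like cells asked which of the genes separate the contractile cells from the matrix-producing cells of the same pools. Atp2a2, Itpr1 and Ryr2 were higher in smooth muscle-like cells, by 1.24 ± 0.27, 1.5 ± 0.41 and 5.03 ± 1.41 on the log2 scale (± SE, 2 pools). Cacna1g was lower by far, with a log2 change of -9.14 ± 1.05. The other 6 did not pass the test. A called gene had an adjusted p under 0.05 in edgeR's quasi-likelihood test with the pool as a block and Benjamini-Hochberg adjustment over all genes tested. By this rule 4 of 10 genes were called, 3 higher and 1 lower, where 650 of 8464 genes tested (7.68%) were called in all. The 10 genes were chosen with earlier results of these data known. Their calls and medians beside those of all genes are therefore a description and no test of the set. The median change was 1.37 over the 10 genes and 0.33 over all genes tested, and that of the 10 genes was 0.63 with classes at resolution 0.5. Without the pool as a replicate block 1 of the 10 remained called (Cacna1g), as with classes taken at resolution 0.5 alone. With the 3 classes in 1 fit none was called by edgeR. In that fit 4 of the 10 had an unadjusted edgeR p under 0.05, as had 875 of the 6770 genes tested. Itpr1 was not called at resolution 0.25 or with all genes tested, and Ryr2 was not called at resolution 0.25 or in cells thinned to 50000 counts.

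Smooth muscle-like against endothelial-like cells gave 1 call among the 10 genes, Atp2a2, which was higher by 1.82 ± 0.46 (edgeR adjusted p = 0.00188). All genes tested gave 562 calls of 8237 (6.82%). The median change was 2.68 over the 10 genes, or 1.76 with Cacna1h, which had no count in endothelial-like cells, at its lower bound, and 0.91 over all genes tested. With DESeq2's size factors in edgeR the median of all genes moved to 0.71 and that of the 10 genes to 2.48; the latter was 1.53 at resolution 0.5 and 4.22 with thinned cells. Atp2a2 was not called without the replicate block or by DESeq2, which called Stim1 and Ryr2. Fibroblast-like against endothelial-like cells gave no call by edgeR among the 7 genes tested, where 5.54% of 5628 genes were called in all. An unadjusted edgeR p under 0.05 was found for 2 of the 7 and for 962 of the 5628. DESeq2 called Stim1 and Cacna1g there. The endothelial-like sums rested on 21 cells, and both comparisons of smooth muscle-like cells share the same smooth muscle-like sums.

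**Figure D1:**
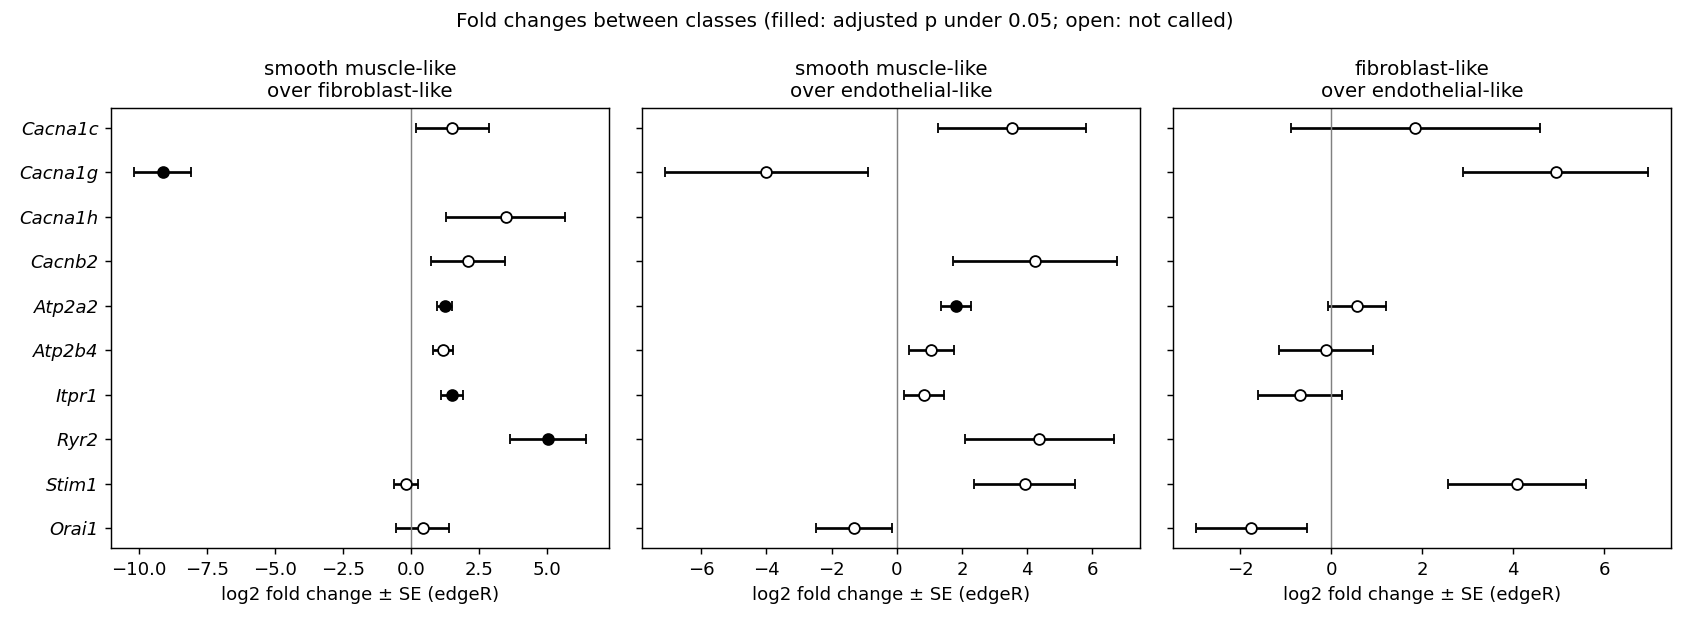
Log2 fold changes ± SE (horizontal axis) of the 10 genes in the 3 comparisons of classes, from edgeR over 2 pools; filled points passed an adjusted p of 0.05. Atp2a2 is the gene with a filled point in both comparisons of smooth muscle-like cells, Cacna1g lies at -9.14 in the first, and genes not tested or with no count in a class are left out.

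Among the voltage-gated channels, Cacna1c, the pore of the L-type channel that carries most depolarisation-driven calcium entry in vascular muscle, stood at 34.1 and 19.5 CPM among smooth muscle-like cells of pool A and pool B, at 3.20 and 20.98 CPM among fibroblast-like cells and at 4.54 and 0.836 CPM among endothelial-like cells. The fibroblast-like cells were low in pool A and as high as smooth muscle-like cells in pool B, where 1 cell held 76.4% of the Cacna1c counts. Its log2 change against fibroblast-like cells was 1.52 ± 1.35 (edgeR adjusted p = 0.615). As the mean of the pools' log2 ratios it was 1.63, and 2.55 with the highest cell of each class left out. Against endothelial-like cells, which held 15 counts, Cacna1c changed by 3.55 ± 2.27 (edgeR adjusted p = 0.415). A count was present in 22.7% of smooth muscle-like cells thinned to 50000 counts (exact 95% interval 19.3 to 26.3%), in 9.84% of fibroblast-like cells (3.70 to 20.2%) and in 0 of 21 endothelial-like cells, which by the 3-count rule allows a share of cells with a thinned count of up to 14.3% (exact upper limit 16.1%) and sets no limit on cells that express the gene. Without thinning these shares were 36.1%, 14.8% and 19.05%.

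Cacnb2, the beta subunit that brings the pore to the membrane, was even between the pools in smooth muscle-like cells, at 20.9 and 19.99 CPM. It stood at 6.70 and 2.91 CPM among fibroblast-like cells and at 0.649 and 1.67 CPM among endothelial-like cells, so that the pools of smooth muscle-like cells lay above those of both other classes. The change against fibroblast-like cells was 2.09 ± 1.37 (edgeR adjusted p = 0.433), and a single fibroblast-like cell held 77.8% of the counts of that class. Without the highest cell of each class the mean log2 ratio went from 2.17 to 4.14. A thinned count was found in 21.1% of smooth muscle-like cells (17.8 to 24.7%) and in 4.92% of fibroblast-like cells (1.03 to 13.7%). Annotated exons of other genes on the opposite strand cover 4.67% of the exonic bases of Cacnb2 at most for one gene, and whether counting used strand is not stated.

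Of the T-type genes, Cacna1g was called in one comparison and Cacna1h in none. Cacna1g (ENSMUSG00000020866; chromosome 11, 94408391 to 94474198, GRCm38) stood at 99.2 and 41.4 CPM among fibroblast-like cells of pool A and pool B and at 0.316 and 0.035 CPM among smooth muscle-like cells, from 28 and 3 counts. Both fibroblast-like sums lay above every other sum, and the fold change had an edgeR adjusted p of 1.8e-05. Endothelial-like cells held 29 counts of Cacna1g in pool A, all in 1 cell, and none in pool B. The gene was found in a minority of fibroblast-like cells: 14 of 38 in pool A and 4 of 23 in pool B had a thinned count (29.5% over both, 18.5 to 42.6%), against 3 of 565 smooth muscle-like cells (0.531%, 0.110 to 1.54%). Of the 61 fibroblast-like cells 11 reached 100 CPM, the highest at 978 CPM, and in pool B 1 cell held 74.6% of the counts. Leaving out the highest cell of each class moved the mean log2 ratio from -9.14 to -9.76. At the floor of 3 counts, the level that 0 counts would allow in smooth muscle-like cells of pool B was 0.0347 CPM, which equals the level measured there.

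Cacna1h was found in few cells of any class, at 2.41 and 2.18 CPM in the smooth muscle-like sums. A count was present in 2.48% of smooth muscle-like cells and 3.28% of fibroblast-like cells without thinning, and in 1.77% and 0% of them after it. Fibroblast-like cells held 2 counts in all, and endothelial-like cells none. Over both pools its level was 11.5 times that of fibroblast-like cells, with an interval of 3.15 to 94.9 for counting error only, and at least 3.27-fold higher than in endothelial-like cells with the floor of 3 counts over the group. The fit gave 3.49 ± 2.19 against fibroblast-like cells (edgeR adjusted p = 0.405). Of 565 smooth muscle-like cells 14 had a count, 3 reached 100 CPM and 1 held 30.9% of the counts.

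**Figure D2:**
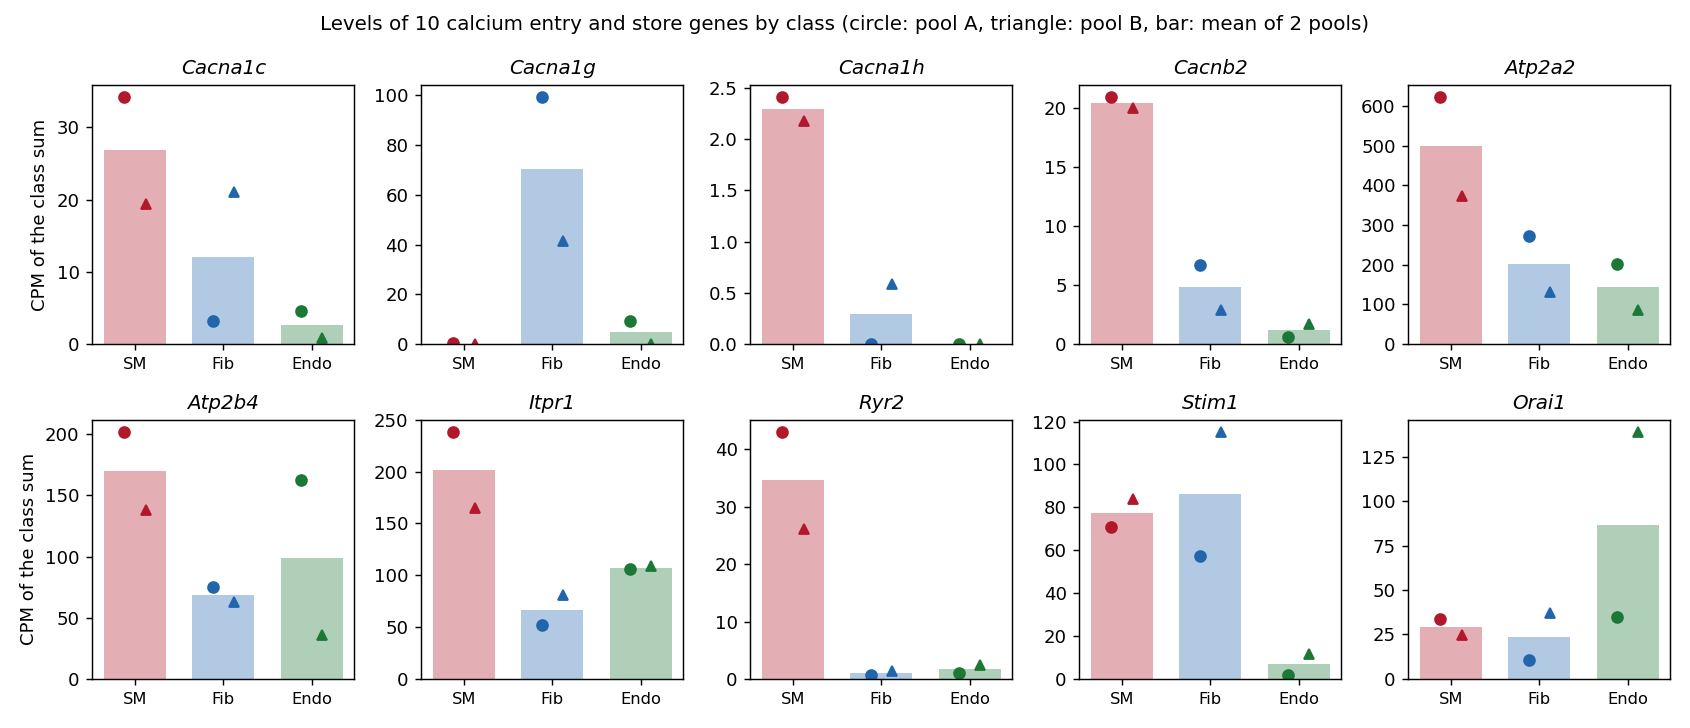
Levels of the 10 genes in CPM of the class sum (vertical axes, each from 0) in smooth muscle-like (SM), fibroblast-like (Fib) and endothelial-like (Endo) cells; circles are pool A, triangles pool B and bars the mean of the 2 pools. Cacna1g is high in fibroblast-like cells alone (99.2 and 41.4 CPM), Ryr2 in smooth muscle-like cells (43 and 26.2 CPM), and Stim1 in both.

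Atp2a2 was the most abundant of the 10 genes in smooth muscle-like cells. It stood at 621 CPM in pool A and 374 CPM in pool B, at 272.4 and 131.7 CPM among fibroblast-like cells and at 202.9 and 86.1 CPM among endothelial-like cells. Smooth muscle-like cells were the highest class in each pool, and pool A lay above pool B in each of the 3 classes. The change against fibroblast-like cells had an edgeR adjusted p of 0.00658. Atp2a2 (ENSMUSG00000029467) lies on chromosome 5 at 122453513 to 122502225 of GRCm38. It was also the most widespread, with a thinned count in 96.8% of smooth muscle-like cells (95.01 to 98.1%), 80.3% of fibroblast-like cells (68.2 to 89.4%) and 76.2% of endothelial-like cells (52.8 to 91.8%). The median smooth muscle-like cell held 559 CPM in pool A and 324.3 CPM in pool B, against 128.4 and 46.9 CPM for the median fibroblast-like cell and 46.2 and 65.2 CPM for the median endothelial-like cell.

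Atp2b4, which expels calcium across the plasma membrane, was also highest in smooth muscle-like cells of each pool, while the other classes changed places between the pools. Its level was 201.9 and 138.3 CPM among smooth muscle-like cells, 75.3 and 62.6 CPM among fibroblast-like cells and 162.6 and 35.9 CPM among endothelial-like cells, where 1 cell held 58.3% of the counts. The change against fibroblast-like cells, 1.18 ± 0.38, did not pass (edgeR adjusted p = 0.0837), although smooth muscle-like cells were higher in both pools. Against endothelial-like cells it was 1.07 ± 0.68 (edgeR adjusted p = 0.413), with ranges that overlap between the classes. A thinned count of Atp2b4 was present in 79.5% of smooth muscle-like cells (75.9 to 82.7%) and in 54.1% of fibroblast-like cells (40.8 to 66.9%).

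Both release channel genes were called against fibroblast-like cells and neither against endothelial-like cells. Itpr1 (ENSMUSG00000030102; chromosome 6, 108213096 to 108551109), the inositol trisphosphate receptor, stood at 238.2 CPM in pool A and at 201.6 ± 51.8 CPM over both pools (SD, n = 2) among smooth muscle-like cells, with 21084 and 14260 counts. Its level was 52.3 and 81.01 CPM among fibroblast-like cells and 105.8 and 108.7 CPM among endothelial-like cells. Both smooth muscle-like pools lay above all sums of the other classes. The edgeR adjusted p was 0.0312 against fibroblast-like cells and 0.484 against endothelial-like cells (0.84 ± 0.62). A thinned count was present in 81.9% of smooth muscle-like cells (78.5 to 85.03%), 49.2% of fibroblast-like cells (36.1 to 62.3%) and 57.1% of endothelial-like cells (34.02 to 78.2%).

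Ryr2 (ENSMUSG00000021313; chromosome 13, 11553102 to 12106945), the ryanodine receptor that releases calcium in response to calcium and is best known from heart muscle, stood at 43 and 26.2 CPM among smooth muscle-like cells. It fell to 0.609 and 1.46 CPM among fibroblast-like cells, from 9 counts, with an edgeR adjusted p of 0.0378. Endothelial-like cells held 6 counts, at 0.974 and 2.51 CPM, and the change of 4.38 ± 2.29 against them did not pass (edgeR adjusted p = 0.321). The sums did not overlap in either comparison, which with 2 sums per class is a description and no test. Within the pools, as log2 ratios of CPM with a prior count, the difference from fibroblast-like cells was 5.97 (pool A) and 4.03 (pool B). A thinned count of Ryr2 was present in 28.5% of smooth muscle-like cells (24.8 to 32.4%), 1 of 61 fibroblast-like cells (1.64%, 0.0415 to 8.80%) and 2 of 21 endothelial-like cells (9.52%, 1.17 to 30.4%). Without thinning these shares were 53.8%, 11.5% and 23.8%. In pool A 26.3% of smooth muscle-like cells had a thinned count of both Itpr1 and Ryr2, 57.7% of Itpr1 alone and 6.33% of Ryr2 alone. The same shares of pool B were 18.9%, 60.8% and 4.91%. Multiplying the separate detection rates of the genes gave 27.4% (pool A) and 18.9% (pool B) for both, close to the shares found. Whether cells with both genes or with Itpr1 or Ryr2 alone differ as groups was not tested.

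For store-operated entry neither gene passed the test against fibroblast-like cells. Stim1, the sensor in the store membrane, stood at 70.7 and 83.9 CPM among smooth muscle-like cells, compared with 57.1 and 115.1 CPM among fibroblast-like cells. The ranges overlapped, and the change was -0.18 ± 0.45 (edgeR adjusted p = 0.894), with a sign that turned to 0.00545 with classes at resolution 0.5. Endothelial-like cells were low, at 1.95 and 11.7 CPM from 20 counts. The changes of Stim1 against them were 3.93 ± 1.55 for smooth muscle-like cells (edgeR adjusted p = 0.127) and 4.09 ± 1.52 for fibroblast-like cells (edgeR adjusted p = 0.201). Neither passed, and the lack of overlap between 2 sums per class is no test. A thinned count was found in 44.96% of smooth muscle-like cells (40.8 to 49.2%), 37.7% of fibroblast-like cells (25.6 to 51.04%) and 1 of 21 endothelial-like cells (4.76%, 0.120 to 23.8%). Without thinning these shares were 63.4%, 54.1% and 28.6%.

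Orai1, the pore in the plasma membrane, was measured at 33.9 and 24.8 CPM among smooth muscle-like cells, 10.7 and 37.01 CPM among fibroblast-like cells and 34.7 and 138.8 CPM among endothelial-like cells. Endothelial-like cells were highest in pool B and level with smooth muscle-like cells in pool A. The changes were 0.43 ± 0.97 against fibroblast-like cells (edgeR adjusted p = 0.878) and -1.31 ± 1.16 against endothelial-like cells (edgeR adjusted p = 0.578). Among fibroblast-like cells of pool B 1 cell held 93.7% of the counts, and without the highest cell of each class the mean log2 ratio against fibroblast-like cells went from 0.54 to 2.36. A thinned count of Orai1 was found in 15.9% of smooth muscle-like cells (13.01 to 19.2%), 14.8% of fibroblast-like cells (6.98 to 26.2%) and 5 of 21 endothelial-like cells (23.8%, 8.22 to 47.2%). Stim1 and Orai1 were both present in 8.33% of smooth muscle-like cells of pool A and 11.3% of pool B. Their separate detection rates multiply to 6.59% and 7.83%, below the shares found, and the difference was not tested. Stim1 alone was held by 34.7% and 35.8% of these cells, and Orai1 alone by 21 and 14 cells.

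**Figure D3:**
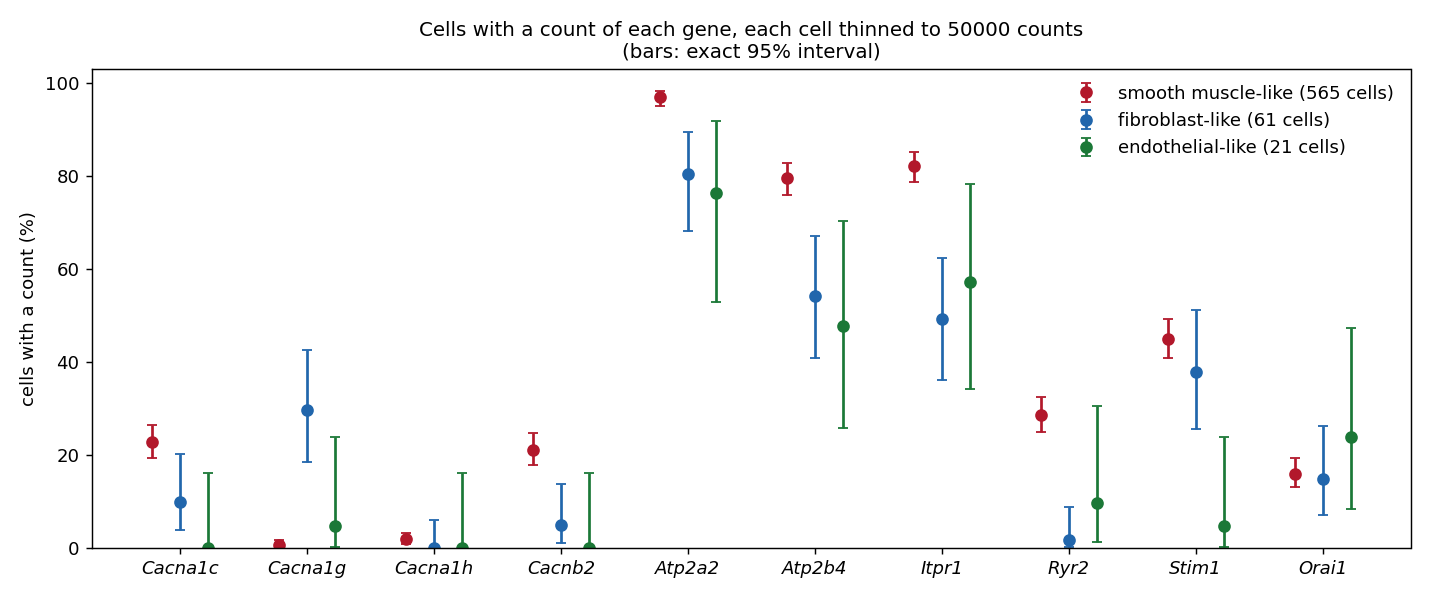
Share of cells with a count of each gene (vertical axis, percent) after each cell was thinned to 50000 counts, by class over both pools; bars are exact 95% intervals for counting error. Atp2a2 reaches 96.8% of smooth muscle-like cells, Cacna1g 29.5% of fibroblast-like cells against 0.531% of smooth muscle-like cells, and Stim1 4.76% of endothelial-like cells.

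Levels were compared between genes as CPM per kilobase of annotated exons. In smooth muscle-like cells Atp2a2 led with 81.9 ± 28.8 CPM per kilobase (SD, n = 2 pools). Atp2b4 (13.9 ± 3.67), Orai1 (12.8 ± 2.79) and Itpr1 (11.005 ± 2.83) followed with overlapping ranges, and Stim1 stood below them at 7.45 ± 0.897 CPM per kilobase. This order depends on the length used: per kilobase of the transcript with the longest coding sequence Stim1 stood at 17.7, above Orai1 at 15.6 and below Itpr1 at 20.4 CPM, and in fibroblast-like cells Stim1 (19.7) also lay above Orai1 (12.7). Cacnb2 (1.55 ± 0.048), Cacna1c (1.26 ± 0.49) and Ryr2 (1.20 ± 0.41) formed a lower set with overlapping ranges. Cacna1h, at 0.235 ± 0.017 CPM per kilobase, and Cacna1g, at 0.017 ± 0.020, were lowest and did not overlap. In fibroblast-like cells the order was Atp2a2 at 33.2 ± 16.4, then Orai1 (10.4 ± 8.12), Stim1 (8.30 ± 3.95), Cacna1g (6.93 ± 4.03) and Atp2b4 (5.63 ± 0.729) with each overlapping the next, then Itpr1 at 3.64 ± 1.11 CPM per kilobase. Below these stood Cacna1c (0.571 ± 0.593) and Cacnb2 (0.364 ± 0.203), which overlap, and then Ryr2 (0.036 ± 0.021) and Cacna1h (0.030 ± 0.042), which overlap too. In endothelial-like cells Orai1 (37.8 ± 32.1) and Atp2a2 (23.8 ± 13.6) overlapped at the top, followed by Atp2b4 (8.11 ± 7.31) and Itpr1 (5.85 ± 0.111), which overlap. Stim1 (0.658 ± 0.665), Cacna1g (0.464 ± 0.657), Cacna1c (0.127 ± 0.124), Cacnb2 (0.088 ± 0.055) and Ryr2 (0.060 ± 0.038) followed with each overlapping the next, and Cacna1h was at 0.

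The counts of each gene were spread over cells to different degrees. The 10% of smooth muscle-like cells with the most counts held 22.1% of the Atp2a2 counts in pool A and 30.8% in pool B. The corresponding shares were 34.3% and 37.5% for Atp2b4 and 34.9% and 33.7% for Itpr1. Stim1 followed with 55.7% and 46.9%, and Ryr2 with 63.8% and 76.7%. Cacna1c (77.7% and 80.3%), Cacnb2 (82% in both pools) and Orai1 (93.5% and 82.5%) were held by the fewest cells of those with a count in at least 15% of the class. Reads amplified from 1 cell are not independent molecules. These shares used counts not scaled to the depth of each cell, and they broadly rose as the level of the gene fell. Low level and differences between cells were not told apart. The median smooth muscle-like cell had a thinned count of 4 of the 10 genes in each pool, the median fibroblast-like cell of 3 and the median endothelial-like cell of 2. At least 5 of the 10 were found in 34.7% of smooth muscle-like cells of pool A and 27.9% of pool B, in 15.8% and 4.35% of fibroblast-like cells and in 0 of 21 endothelial-like cells. Over smooth muscle-like cells no gene's thinned counts reached a mean Spearman correlation of 0.3 with any of the 7 genes that were detected widely enough to be compared, among 6440 genes, and none is named as alike. In counts that were not thinned, where depth is shared, Itpr1 with Gm44040 (0.49), Atp2a2 with mt-Nd4 (0.41), Actn1 (0.37) and Myh11 (0.36), and Atp2b4 with Lpp (0.33), Zbtb20 (0.32) and Tns1 (0.30) exceeded it among the 3 highest partners of each gene. Gm44040 is an antisense gene that covers 0.59% of the exonic bases of Itpr1 on the opposite strand, so reads of the pair may not be told apart.

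**Figure D4:**
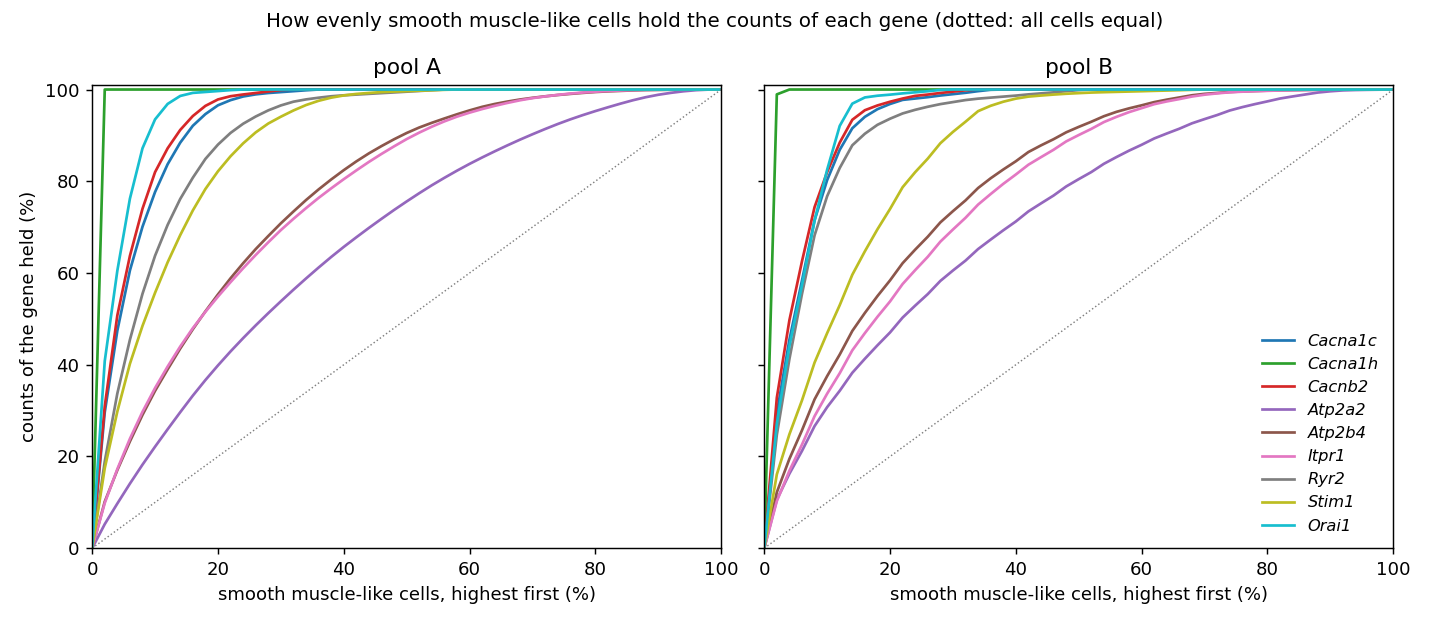
Percent of the counts of each gene (vertical axis) held by a given percent of smooth muscle-like cells, ranked from the highest cell (horizontal axis), in pools A and B; the dotted line is an even spread. The Atp2a2 curve lies nearest the dotted line (22.1% and 30.8% of counts in the highest 10% of cells) and Cacna1h, found in 14 cells, rises at once; Cacna1g is left out for its 31 counts.

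The other calcium-handling genes were counted on the fixed list, which was drawn up with earlier results of these data known. Against fibroblast-like cells 67 of the 75 were tested, and 11 were higher in smooth muscle-like cells, 3 lower and 53 not called; their median change was 0.39, against 0.33 for all genes, of which 7.68% were called. The list gave 3 higher and 1 lower with all classes in 1 fit, 6 and 2 at resolution 0.25, 8 and 1 with no replicate block or at resolution 0.5, and 16 and 7 with DESeq2. Jph2, a junctophilin that tethers store and surface membranes, stood at 228.5 and 99.4 CPM among smooth muscle-like cells of pool A and pool B and at 5.18 and 4.08 CPM among fibroblast-like cells (4.96 ± 0.55). Mrvi1, the cGMP kinase substrate that binds the inositol trisphosphate receptor, stood at 461 and 363.2 CPM against 8.08 and 18.1 CPM (4.97 ± 0.44). Casq1, a calsequestrin that buffers calcium in the store, stood at 224.3 and 183.999 CPM against 9.45 and 10.2 CPM (4.27 ± 0.47).

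Asph, whose locus encodes the store proteins junctin and junctate (1.62 ± 0.28), and Tmem38b, a store potassium channel (2.16 ± 0.49), were higher as well. In store-operated entry Orai3 (2.79 ± 0.56) and Tmem110, a STIM1 regulator at store junctions (4.16 ± 0.42), were higher, where Stim1 and Orai1 were not called. Orai3 stood at 98.3 and 125.4 CPM among smooth muscle-like cells, compared with 18.4 and 11.95 CPM among fibroblast-like cells. The exchanger gene Slc24a3 (4.82 ± 0.87), the channel subunit gene Cacnb3 (4.46 ± 0.99), the calmodulin kinase gene Camk2g (2.53 ± 0.44) and Mylk, the myosin light chain kinase (4.11 ± 0.30), complete the higher set. Cacnb3, a relative of Cacnb2, stood at 51.3 and 55.4 CPM among smooth muscle-like cells, and stood at 2.44 and 2.04 CPM among fibroblast-like cells.

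Lower in smooth muscle-like cells were Itpr2, the second inositol trisphosphate receptor (-4.64 ± 0.75), Sri, which encodes sorcin (-1.23 ± 0.31), and the store chaperone Calr (-0.78 ± 0.22). Itpr2 stood at 5.93 and 2.28 CPM among smooth muscle-like cells, 75.6 and 97.03 CPM among fibroblast-like cells and 305.4 and 84.4 CPM among endothelial-like cells. Smooth muscle-like cells were thus the highest class for Itpr1 and the lowest for Itpr2 in both pools. By role, 4 of 12 tested genes of store release were higher and 1 lower, 1 of 9 voltage-gated subunits, 1 of 11 pumps and exchangers, 2 of 6 genes of store-operated entry and 2 of 15 sensors were higher, 1 of 7 store buffers was higher and 2 were lower, and none of 7 genes of mitochondrial uptake was called by edgeR.

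Against endothelial-like cells 64 of the list were tested, with 9 higher in smooth muscle-like cells and 3 lower, where 6.82% of all genes were called; with no replicate block 4 were higher and 0 lower, and with DESeq2 13 and 2. The median change was 1.75, or 1.23 with the 6 genes at 0 in endothelial-like cells at their bounds, against 0.91 for all genes. Casq1 (5.32 ± 0.94), Jph2 (5.26 ± 1.07), Slc24a3 (5.23 ± 1.75), Tmem110 (4.38 ± 0.69), Mrvi1 (3.45 ± 0.57), Mylk (3.42 ± 0.32) and Asph (2.96 ± 0.54) were higher here too. Cacna2d1, the alpha-2-delta subunit of voltage-gated channels, stood at 148.1 and 78.6 CPM among smooth muscle-like cells, compared with 2.92 and 1.67 CPM among endothelial-like cells (5.57 ± 1.36), and Calu, a calcium-binding protein of the secretory pathway, was higher by 1.24 ± 0.41. Itpr2 (-5.50 ± 0.94), Itpr3 (-7.07 ± 2.08) and Sri (-2.10 ± 0.47) were lower. Itpr3, the third inositol trisphosphate receptor, stood at 0.113 and 1.33 CPM among smooth muscle-like cells, and stood at 31.2 and 86.1 CPM among endothelial-like cells.

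Between fibroblast-like and endothelial-like cells 47 of the list were tested, and Calr was higher in fibroblast-like cells (1.85 ± 0.43). The 5 most abundant genes of the list in smooth muscle-like cells with no call in any comparison were Fkbp1a, a release channel partner (714 ± 29.8 CPM, SD, n = 2 pools), Calm2, a calmodulin gene (708 ± 31.01 CPM), Saraf, a brake on store-operated entry (271.3 ± 50.2 CPM), the chaperone Canx (250.8 ± 80.7 CPM) and Sept2, a septin (226.9 ± 7.88 CPM). Against fibroblast-like cells Fkbp1a changed by 0.57 ± 0.24 and Calm2 by 0.61 ± 0.23.

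**Figure D5:**
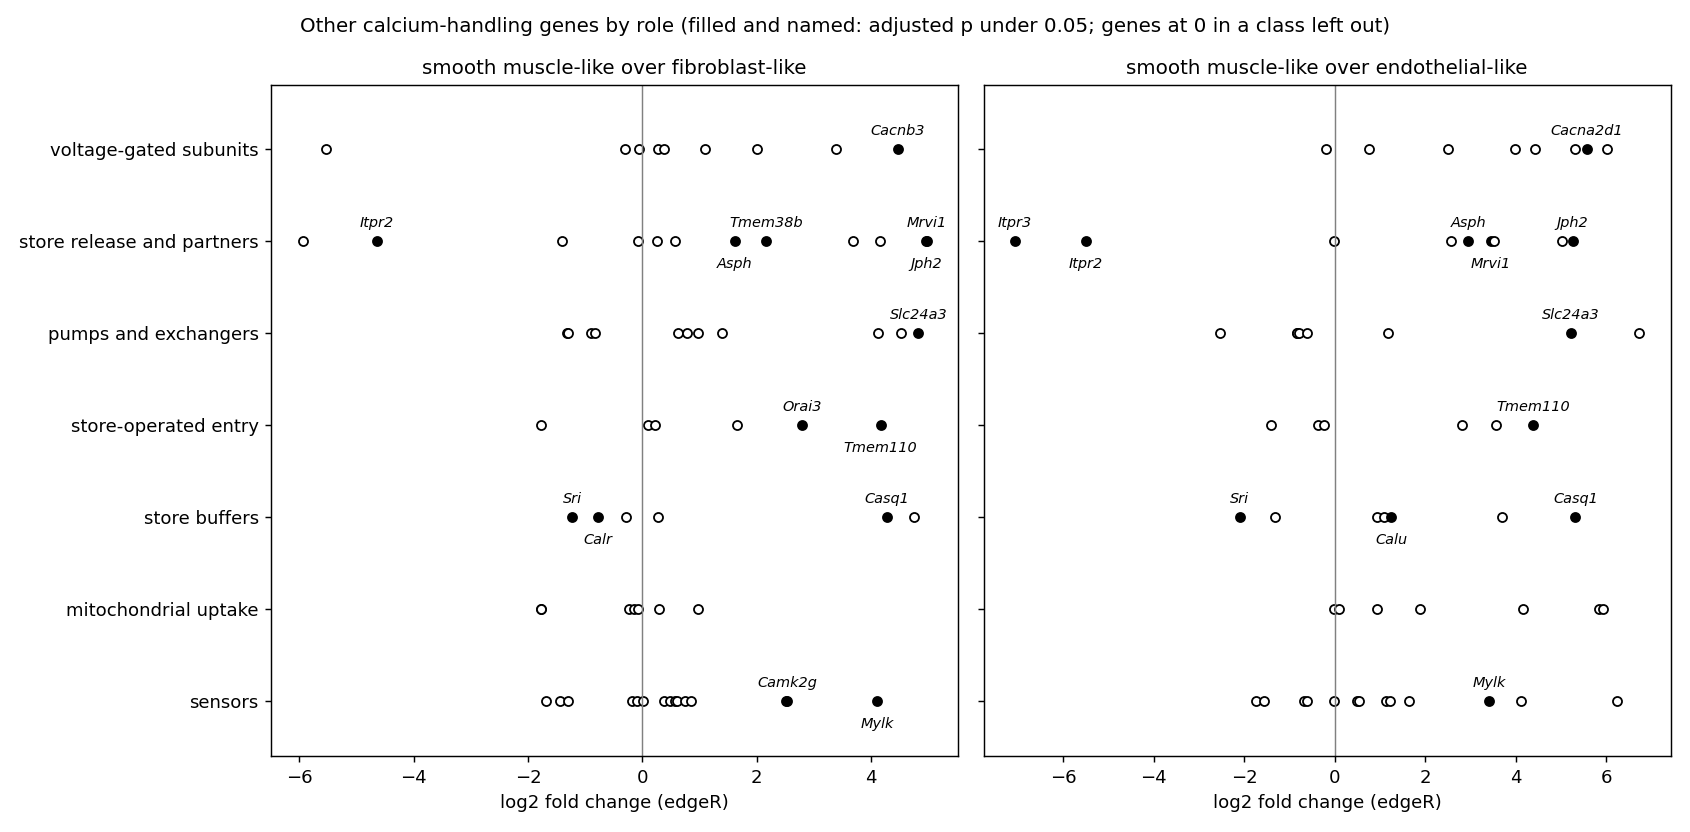
Log2 fold changes (horizontal axis) of the other calcium-handling genes by role for smooth muscle-like over fibroblast-like cells and over endothelial-like cells, from edgeR over 2 pools; filled, named points passed an adjusted p of 0.05. Jph2, Mrvi1 and Casq1 lie to the right in both panels and Itpr2 to the left; genes with no count in a class are left out.

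Smooth muscle-like cells fell into cluster 0 (71.4% of the cells of pool A and 22.1% of those of pool B) and cluster 1 (10.4% and 63.96%). Cluster 0 was led by Pkdcc, Pcdh7 and Thsd4, with the pericyte marker Cspg4 lower among its leading genes. Cluster 1 was led by the cardiac marker Tnnt2, Igfbp2 and Wif1. Markers of one list did not all go one way. Tnnt2 was higher in cluster 1 in both pools. The cardiac marker Actc1 was higher in cluster 0 (8.07 and 83.2 CPM) than in cluster 1 (1.77 and 21.2 CPM). Cspg4 was higher in cluster 0 in both pools, while the pericyte marker Kcnj8 changed direction between pools. The clusters are therefore called by number. Between them edgeR called 0 of 8166 genes (0%), with 451 at an unadjusted p under 0.05, and DESeq2 called 84, none of them among the 10 genes. Cacna1c was at 36.8 and 37.03 CPM in cluster 0 and at 19.4 and 15.5 CPM in cluster 1, with a change of 1.07 ± 0.36 (edgeR adjusted p = 0.845). Atp2b4 was at 207.04 and 227.3 CPM in cluster 0 and 173.5 and 118.5 CPM in cluster 1 (0.58 ± 0.22, edgeR adjusted p = 0.845). These 2 genes had an unadjusted p under 0.05 among the 9 tested.

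The pools were compared within a cluster, with 1 sum each and no test. Atp2a2 was higher in pool A in both, at 635 against 446 CPM in cluster 0 and at 544 against 358.05 CPM in cluster 1. Itpr1 was also higher in pool A in both, at 244.2 against 197.05 CPM and at 205.2 against 157.9 CPM. Stim1 was higher in pool B in both, at 71.6 against 82.9 CPM and at 65.9 against 84.1 CPM. Ryr2 was lower in pool A in cluster 0 (43.5 against 54.9 CPM) and higher in cluster 1 (40.4 against 19.8 CPM), and Cacna1c was level between pools in cluster 0. The median smooth muscle-like cell held 292448 counts in pool A and 326658 in pool B.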

How the data were processed

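Single-cell RNA was measured by Smart-seq2 in 675 cells of 2 pools of 2 mice. The authors deposited raw counts per gene and cell, and the submitters' processing notes name bcl2fastq, Bowtie, Bowtie2, featureCounts and Subread with GRCm38 (mm10), with no versions and no strand setting. Symbols and coordinates came from the GENCODE annotation of GRCm38, and 512 identifiers had no symbol (0.217% of all counts). The 10 genes, the pathway list and the markers were chosen with earlier results of these data known. Named are all 10 genes, the list genes called in a comparison and the 5 most abundant of the others; one result of the list is not reported here. Genes alike are named only from a mean correlation of 0.3.

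Genes were divided by a hash of the symbol into 23224 for clustering, with all markers, and 23256 for testing, with the 10 genes and the list. Clusters and tests used the same cells, which makes the tests dependent on the classes. After scaling each cell to 10000 counts and taking logs, 2000 variable genes, 20 components and 15 neighbours gave Leiden clusters (scanpy 1.11.5, leidenalg 0.10.2). A cluster took the name of the markers with the highest relative level. A cell kept its class where resolutions 0.5 and 1.0 gave it the same name, a rule chosen after the clusters were seen because resolution 0.5 mixed mural cells into the other classes; the 28 cells without a class were 17 of a cluster led by Vtn and 11 named differently at the 2 resolutions. A class needed 5 cells in each pool. No doublet caller was run, and no cell was identical to another.

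Counts were summed per pool and class, to 1196130 to 88512847 counts, and fitted in edgeR 4.0.16 (R 4.3.3) with filterByExpr, TMM, the pool as a block, 1 residual degree of freedom and the quasi-likelihood F test. All classes of one pool come from one plate, which pairs the sums by the labels; pool A minus pool B differences, over 7322 genes that are no independent replicates, correlated at r = 0.112 for smooth muscle-like with fibroblast-like sums, 0.118 with endothelial-like sums and 0.0703 for the remaining pair. With the pool as a block, P-values measure only how the class difference varied between the 2 pools, with a dispersion that draws on all genes tested. Where sums of classes or genes are said to lie above others or not to overlap, this describes 2 values per group and is no test. Shares used cells thinned to 50000 counts with exact Clopper-Pearson intervals, and neither these nor the floor of 3 counts covers more than counting error. Alternatives were DESeq2 1.42.0, its size factors, no filter, no replicate block, 1 fit of all classes, cells of at least 100000 counts and 2000 genes, thinned counts, other resolutions, all genes tested, each pool alone, and sums without the highest cell.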

Additional observations from a re-analysis of the deposited data

Results flagged for a closer look

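Some genes pointed one way in pool A and the other way in pool B, as log2 ratios of CPM with a prior count. With 1 sum per class and pool the difference between the pools was not tested. For smooth muscle-like over fibroblast-like cells Cacna1c gave 3.38 (pool A) and -0.12 (pool B), Stim1 0.31 and -0.46, and Orai1 1.66 and -0.58. For fibroblast-like over endothelial-like cells it was -0.52 and 4.07 for Cacna1c and -1.11 and 0.79 for Atp2b4. For cluster 0 over cluster 1 of smooth muscle-like cells it was 0.12 and -0.0205 for Stim1. Beside these, 1 cell held 76.4% of the Cacna1c counts and 1 cell 93.7% of the Orai1 counts of fibroblast-like cells in pool B, and 63.3% of the Atp2b4 counts of endothelial-like cells in pool A lay in 1 cell; the part of these cells in the change of sign was not tested.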

How the results depend on the processing

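Against fibroblast-like cells 650 genes (7.68% of those tested) were called in smooth muscle-like cells, against 1274 (18.2%) with DESeq2, 3.36% with no replicate block, 1.76% with all classes in 1 fit, 406 (4.79%) at resolution 0.25 and 1198 (7.03%) with all genes tested, which adds the clustering genes. Against endothelial-like cells 562 (6.82%) were called, against 981 (14.1%) with DESeq2, 2.06% with no replicate block, 4.98% in 1 fit and 1124 (6.77%) with all genes tested. Fibroblast-like against endothelial-like cells gave 5.54%, against 788 genes (13.7%) with DESeq2, 3.89% with no replicate block and 624 (5.47%) with all genes tested. Between the smooth muscle-like clusters 0 were called, against 84 (1.17%) with DESeq2, 19 (0.147%) with no filter on low counts, 16 (0.242%) with thinned cells and 0 with no replicate block. The sign turned for Stim1 against fibroblast-like cells at resolution 0.5 (0.00545) and for Atp2b4 in fibroblast-like against endothelial-like cells with thinned cells (0.25) and at resolution 0.5 (0.49). Other causes of these changes were not tested. Resolution 0.5 alone, all genes tested and the cells with cardiac markers left out were chosen after the data were seen. Of the values for single genes, 579 stayed within their spread or on their side of the threshold, 91 moved, 16 lost a call and 5 gained one. The 579 include the ratios of each pool alone. With 2 pools these lie within their spread by arithmetic, so they show no stability. Sums of fibroblast-like and endothelial-like cells rest on few cells, which limits what these data can show for Cacna1h, Cacnb2 and Ryr2 outside smooth muscle.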

Other observations

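The 28 cells outside the classes were too few for a comparison, and their values are given by pool. In the 17 cells of the cluster led by Vtn, where pericyte markers summed to 4574 and 3371 CPM in pools A and B, Atp2a2 stood at 368 and 201.6 CPM, Itpr1 at 171.5 and 134.9 CPM, Atp2b4 at 134.1 and 118.1 CPM and Stim1 at 55.1 and 162.2 CPM. Cacna1c stood at 103.7 and 1.05 CPM there and Ryr2 at 0 and 54.1 CPM, with 97.1% of the Ryr2 counts in 1 cell, while Cacna1g and Cacna1h had no count. In the 11 cells named fibroblast at one resolution and smooth muscle at the other, Atp2a2 stood at 981 and 417 CPM and Cacna1c at 22.7 and 173.6 CPM, and 3 counts of Cacna1g were found in all.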
